A study of Danio rerio with 6 samples.

Results

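The genes described here are 10 transcription factor genes, of the 19260 genes measured, that steer retinal progenitors towards rods and cones. They are *crx*, *otx5*, *rx1*, *rx2*, *nrl*, *nr2e3*, *neurod1*, *six7*, *tbx2b* and *thrb*, chosen by name for their known roles. Each was read from the 1 probe set whose annotation names that gene alone, and none of the 10 genes had a second probe set of its own. The groups were WT larvae of the Tu strain and *il7r*-/- larvae, all at 4 dpf, with 3 arrays in each group. The *il7r*-/- line carries a CRISPR/Cas9 deletion in *il7r*, a type I cytokine receptor gene, and all its larvae come from this line. Each array was hybridised with RNA pooled from whole larvae, which hold the retina among many other tissues, and fewer photoreceptors cannot be told apart from less transcript per photoreceptor. The study asked which genes change when retinal differentiation is delayed by the loss of *il7r*. It named *rx1* from these same arrays. All 10 factors were chosen with earlier results of these data known, so none of them gives independent evidence.

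Photoreceptors arise from dividing progenitors in steps, and transcription factors act at each of them. Homeobox factors of the OTX and RX families commit a cell to the photoreceptor lineage and switch on the genes of light detection. *nrl* and *nr2e3* then direct rods, while *six7*, *tbx2b* and *thrb* act on the choice of cone class and of cone opsin. *crx* and *otx5* are also transcribed in the pineal gland, *neurod1* in the brain and the endocrine pancreas, and *tbx2b* and *thrb* in many tissues, so the whole-larva signal of these genes is not that of the retina alone.

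Across all 75212 probe sets, the arrays correlated at r = 0.962 to 0.980. WT replicate 3 stood apart, with r = 0.965 to both other WT arrays, while WT replicates 1 and 2 correlated at 0.977. The *il7r* probe set was dim, with values of 1.40, 1.80 and 1.76 in WT and 1.42, 1.64 and 1.71 in *il7r*-/- larvae. The groups overlapped at this gene, so its level gives no check of the genotype labels. None of the 10 genes lies on the chromosome of *il7r* in the GRCz12tu assembly. Values are RMA expression values, read as log2, and every change is *il7r*-/- minus WT.

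None of the 10 factors passed the test between the genotypes, although all 10 had a mean below that of WT. A probe set was called lower when limma gave an adjusted p under 0.05 over all probe sets together with a fold change over 1.5, and 0.170% of probe sets were called lower. At an unadjusted p under 0.05, limma gave 2 of the 10 factors, *crx* and *rx1*, where 8.27% of all genes were lower. The methods' test, taken without adjustment at the same fold, gave *rx1* alone, against 1.98% of all genes, and after adjustment it gave none. A change below 0 was found in 55.0% of all genes, whose median change was -0.02, while the median of the 10 factors was -0.42 and their range was -0.86 to -0.10. The size of the point estimate exceeded a fold of 1.5 in 3 factors, *rx1*, *crx* and *nr2e3*. With 3 arrays against 3, an exact two-sided permutation test cannot give a p below 0.1.

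**Figure D1:**
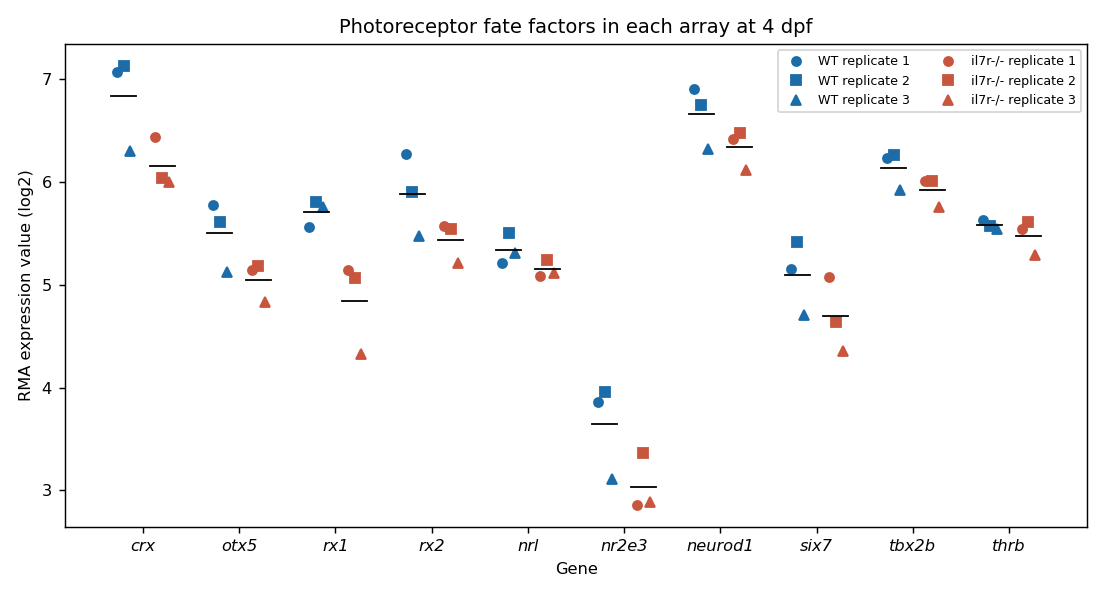
RMA expression value (log2) of each of the 10 factors in the 6 arrays, WT in blue and il7r-/- in red, with the replicate number as the marker shape and black bars at the group means. Only *rx1* has all 3 il7r-/- points below all 3 WT points, and the triangle of WT replicate 3 lies lowest of the WT points in 8 factors.

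*rx1*, one of the RX homeobox genes of the developing zebrafish retina, had the largest change of the 10. Its values were 5.56, 5.81 and 5.76 in WT and 5.14, 5.07 and 4.33 in *il7r*-/- replicates 1 to 3. All *il7r*-/- values lay under the lowest WT value, with a gap of 0.42 between the nearest arrays, and *il7r*-/- replicate 3 was far below the other *il7r*-/- arrays. The mean was 1.82-fold lower, a change of -0.86 (standard error, SE, 0.23, 95% interval -1.41 to -0.31, adjusted p = 0.238). Without *il7r*-/- replicate 3 the change was smaller, at -0.61. *rx2*, its close paralogue, also expressed in photoreceptors, gave 6.27, 5.90 and 5.48 in WT and 5.57, 5.54 and 5.21 in *il7r*-/- larvae. Here WT replicate 3 fell among the *il7r*-/- arrays, and the groups overlapped. The change of *rx2* was -0.44 (SE 0.22, 95% interval -0.97 to 0.084, adjusted p = 0.491).

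*crx*, the cone-rod homeobox gene that activates many photoreceptor genes, had the second largest change. WT replicates 1 and 2 gave 7.07 and 7.13 and WT replicate 3 gave 6.30, while the *il7r*-/- arrays gave 6.44, 6.04 and 6.00. Thus WT replicate 3 lay below *il7r*-/- replicate 1, and the groups overlapped by 1 array. The mean of *crx* was 6.83 ± 0.46 in WT and 6.16 ± 0.24 in *il7r*-/- larvae (SD, n = 3 each), which makes a change of -0.67 (SE 0.25, 95% interval -1.28 to -0.068, adjusted p = 0.371). *otx5*, a homeobox gene of the same family that in zebrafish is transcribed in retinal and pineal photoreceptors, gave 5.78, 5.61 and 5.13 in WT. Its *il7r*-/- values of 5.14, 5.18 and 4.83 reached no higher than 0.05 above WT replicate 3. The change of *otx5* was -0.46 (SE 0.20, 95% interval -0.93 to 0.018, adjusted p = 0.434).

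The 2 rod factors had unequal point estimates, and the difference between them was not tested. *nr2e3*, a nuclear receptor gene that in mice represses cone genes in rods, gave 3.86, 3.96 and 3.11 in WT and 2.86, 3.36 and 2.89 in *il7r*-/- larvae. WT replicate 3 lay below *il7r*-/- replicate 2, and the groups overlapped. Its change was -0.61 (SE 0.26, 95% interval -1.23 to 0.019, adjusted p = 0.432). Both group means of *nr2e3*, 3.64 and 3.04, were under 3.905, which bounds the dimmest tertile of all genes, and a fold read at such levels is uncertain. *nrl*, the basic leucine zipper gene that sets rod fate in mice, gave 5.21, 5.50 and 5.31 in WT and 5.09, 5.24 and 5.12 in *il7r*-/- larvae. The WT and *il7r*-/- arrays of *nrl* overlapped by 0.03, and the arrays of each group lay close together. Its change was -0.19 (SE 0.12, 95% interval -0.48 to 0.10, adjusted p = 0.591), so a decrease of more than 0.48 lay outside the interval.

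*neurod1*, a bHLH gene that in zebrafish acts as photoreceptor progenitors leave the cell cycle, gave 6.91, 6.75 and 6.32 in WT and 6.42, 6.48 and 6.12 in *il7r*-/- larvae. The 2 higher WT arrays lay above all *il7r*-/- arrays, and WT replicate 3 lay among them. Its change was -0.32 (SE 0.19, 95% interval -0.77 to 0.13, adjusted p = 0.559). The endocrine pancreas is, beside the brain, another site of *neurod1*. In the list of endocrine pancreas and secretory genes, 7 of 12 measured genes had a change below 0 and the median was -0.05. None was called (1 lower and 2 higher at an unadjusted p under 0.05 by limma). The sign of the median turned without WT replicate 3 (0.017) and without *il7r*-/- replicate 3 (0.0058).

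Among the factors of cone class, *six7*, a homeobox gene that in zebrafish promotes cone over rod fate and drives the green opsins, had the largest change. Its values were 5.15, 5.42 and 4.71 in WT and 5.08, 4.64 and 4.36 in *il7r*-/- larvae, with *il7r*-/- replicate 1 close to WT replicate 1. The overlap of 0.37 between the groups was the widest of the 10 factors. The change was -0.40 (SE 0.25, 95% interval -0.99 to 0.19, adjusted p = 0.581). *tbx2b*, a T-box gene that in zebrafish favours ultraviolet cones over rods, gave 6.23, 6.26 and 5.92 in WT and 6.01, 6.01 and 5.76 in *il7r*-/- larvae. WT replicate 3 again lay among the *il7r*-/- arrays, and the change was -0.21 (SE 0.14, 95% interval -0.55 to 0.13, adjusted p = 0.616). *thrb*, a thyroid hormone receptor gene required for red cones in zebrafish, gave 5.63, 5.57 and 5.54 in WT and 5.54, 5.61 and 5.29 in *il7r*-/- larvae. The WT arrays of *thrb* spanned only 0.09, and 2 of the 3 *il7r*-/- arrays lay within or at the edge of that span. Its change was the smallest of the set, at -0.10 (SE 0.12, 95% interval -0.39 to 0.19, adjusted p = 0.797). The annotation names the gene and not the isoform, so the cone form of the receptor was not read apart from the others.

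**Figure D2:**
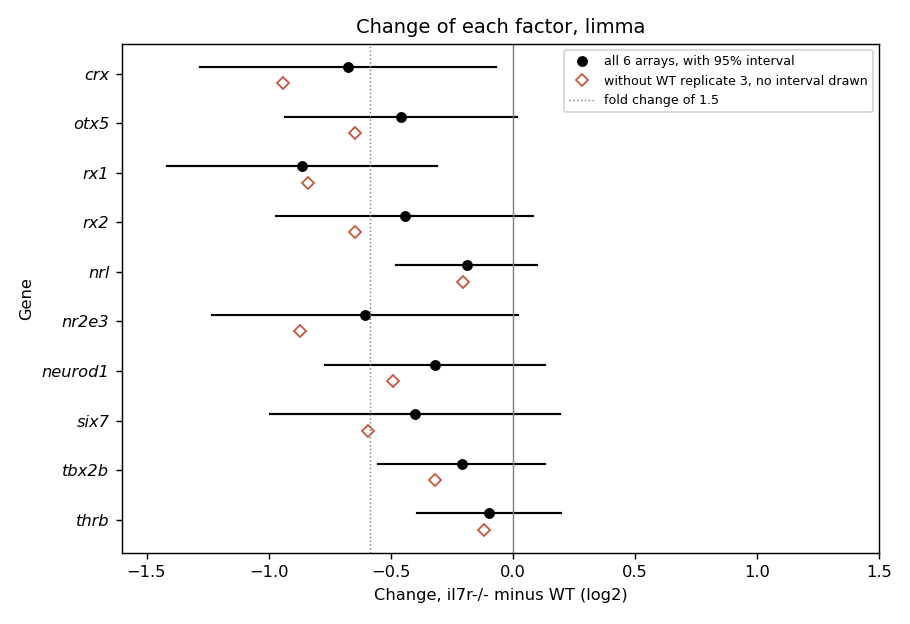
Change of each factor, il7r-/- minus WT (log2), with black points and lines for the limma estimate and its 95% interval over all 6 arrays and open diamonds for the estimate without WT replicate 3. The intervals of *crx* and *rx1* lie below 0, those of the other 8 reach above it, and the diamonds lie to the left of the points in every factor but *rx1*. Fits without the other arrays are not drawn. The median change was -0.62 without WT replicate 3 and -0.28 without *il7r*-/- replicate 3.

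The 6 arrays did not split cleanly by genotype at these genes. *il7r*-/- larvae lay below WT with no overlap in 1 of the 10 factors, *rx1*, which is 10.0% against 13.4% of all genes. WT replicate 3 was the lowest WT array in 8 of the 10 factors, against 38.8% of all genes. It lay at or below the highest *il7r*-/- array in 8 factors. The share of all genes for this count was not computed, so the count does not set these factors apart. The exceptions to both counts were *rx1* and *nrl*. *il7r*-/- replicate 3 was likewise the lowest *il7r*-/- array in 8 factors, all but *nrl* and *nr2e3*, against 33.5% of all genes. The mean level of the 10 factors in WT replicate 3 was 0.42 below that of WT replicates 1 and 2, close to *il7r*-/- replicates 1 and 2 at 0.45 and 0.46 below it, and *il7r*-/- replicate 3 was 0.79 below. Leaving out WT replicate 3 raises the WT mean wherever it was the lowest WT array. The values without it thus follow in part from that count, and the comparison with all genes is not an even one. When WT replicate 3 was left out, groups did not overlap in 8 of the 10 factors, all but *nrl* and *thrb*, against 22.8% of all genes, and the median change was -0.62. The change was then -0.94 in *crx* (adjusted p = 0.114), -0.87 in *nr2e3* (adjusted p = 0.155), -0.65 in both *otx5* (adjusted p = 0.183) and *rx2* (adjusted p = 0.233) and -0.49 in *neurod1* (adjusted p = 0.272), and none of the 10 was called. Other arrays also moved the count of factors without overlap, to 2 without WT replicate 1 (*rx1* and *nrl*, against 18.2% of all genes), to 3 without *il7r*-/- replicate 1 (*crx*, *rx1* and *six7*, against 19.2%) and to 3 without *il7r*-/- replicate 2 (*rx1*, *nrl* and *nr2e3*, against 17.0%). Leaving out other arrays made some changes smaller. Without WT replicate 1 the change was -0.25 in *rx2* and -0.20 in *neurod1*, without WT replicate 2 it was -0.11 in *nrl*, and without *il7r*-/- replicate 3 it was -0.23 in *six7*, -0.13 in *tbx2b* and -0.005 in *thrb*, with a median of -0.28 over the 10. *crx* ranged from -0.94 to -0.53, *nr2e3* from -0.87 to -0.45 and *otx5* from -0.65 to -0.32 over the 6 left-out arrays. All 10 changes stayed below 0 without any 1 of the 6 arrays, and the share of all genes that did so was not computed. These fits share most of their arrays, so this adds little to the signs over all arrays. Leaving out an array cannot create overlap, so *rx1* had to stay free of it. For the same reason the count of factors without overlap could not fall below 1.

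**Figure D3:**
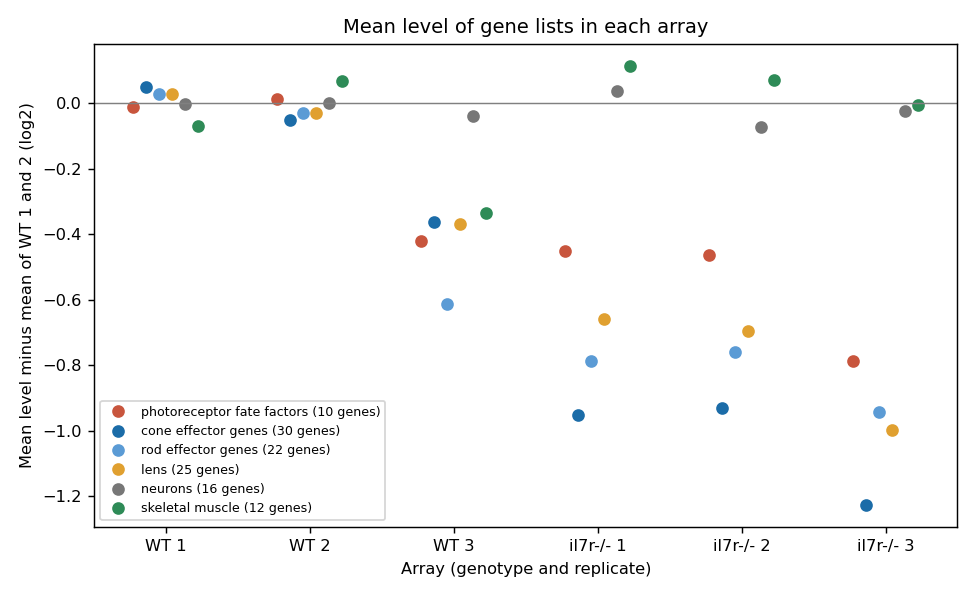
Mean level (log2) of 6 gene lists in each array, as the difference from the mean of WT replicates 1 and 2. In WT replicate 3 the 10 factors lie 0.42 below this mean, near *il7r*-/- replicates 1 and 2, while the cone effector genes lie 0.36 below it and 0.95 and 0.93 below it in those *il7r*-/- arrays.

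The genes of light detection, which factors such as *crx* are known to switch on, had mean levels below WT as well, and the median change was larger than that of the factors in the cone and rod lists and smaller in the outer segment list. Of 30 measured cone effector genes, which carry out the light response of cones, 28 had a change below 0 and the median was -0.95. Of these genes 2 were called lower, and 22 (73.3%) were lower at an unadjusted p under 0.05 by limma, against 8.27% of all genes. Of 22 measured rod effector genes, *nrl* and *nr2e3* left out, 21 had a change below 0, none was called (15 at an unadjusted p under 0.05 by limma) and the median was -0.55. Of 21 measured genes of the outer segment, the surrounding matrix and the photoreceptor synapse, 19 had a change below 0 and the median was -0.34. In this list 1 gene was called lower (9 at an unadjusted p under 0.05 by limma). The differences between these medians and the -0.42 of the factors were not tested. The called genes were *rcvrn3*, a recoverin gene, with a change of -1.87 (SE 0.13, adjusted p = 0.0171), the guanylate cyclase activator gene *guca1c* with -1.16 (SE 0.10, adjusted p = 0.0228) and the retinoid-binding protein gene *rbp3* with -1.95 (SE 0.21, adjusted p = 0.0335). *rcvrn3* went from 8.55 ± 0.06 to 6.68 ± 0.19 (SD, n = 3 each). Each of these 3 calls ended without any 1 array other than WT replicate 3, with adjusted p up to 0.110, 0.132 and 0.133 in that order. Among the rod genes, *prph2a*, an outer segment disc protein gene, had a change of -0.93 (adjusted p = 0.158), and *rcvrna*, another recoverin gene, of -1.12 (adjusted p = 0.186). Since the study arrived at phototransduction from these arrays, the direction of these lists is not independent evidence. The study also measured phototransduction genes, selected from its array results, by quantitative RT-PCR and reported all of them as lower in *il7r*-/- larvae.

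In WT replicate 3 the effector lists were low as well, but to different degrees. The mean level of the rod effector genes was 0.61 below that of WT replicates 1 and 2, against 0.76 to 0.94 below it in the *il7r*-/- arrays. For the cone effector genes the difference was 0.36, against 0.93 to 1.23 below in the *il7r*-/- arrays. WT replicate 3 was thus close to *il7r*-/- replicates 1 and 2 in the factors and between the groups in the cone effector genes. Lens genes were 0.37 lower and skeletal muscle genes 0.34 lower in this array, liver genes were 0.29 higher and neuronal genes 0.04 lower. The part of these other tissues in the values of the factors was not tested.

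**Figure D4:**
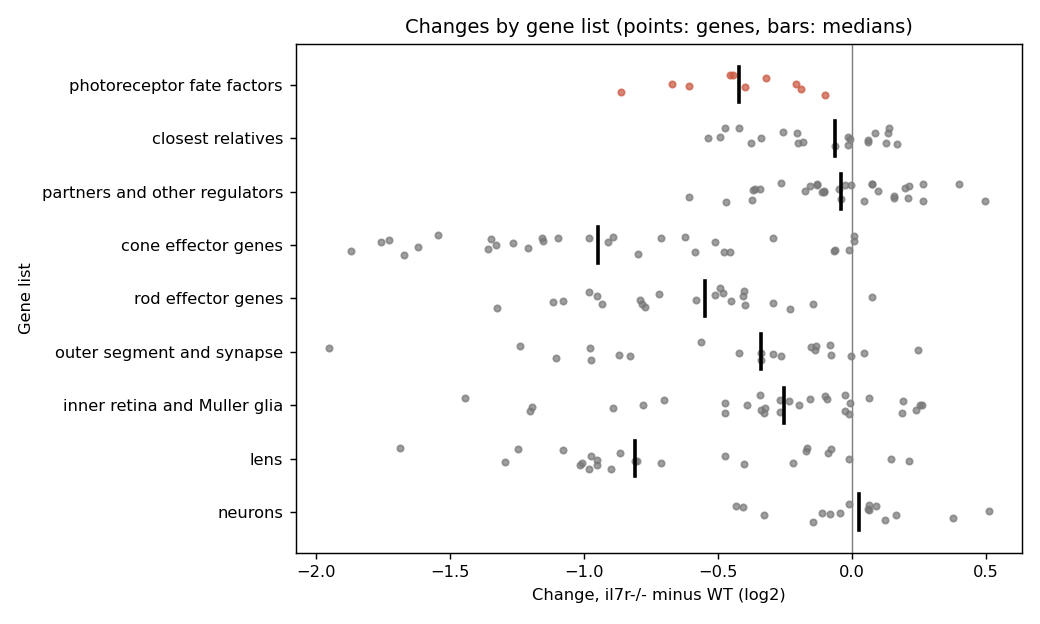
Change of each measured gene, *il7r*-/- minus WT (log2), by gene list, with a point for each gene and a bar at each list's median. All 10 factors lie below 0 around a median of -0.42, their closest relatives lie around -0.06, and the cone effector genes lie around -0.95.

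The closest relatives of the factors, other genes of the same homeobox, nuclear receptor, leucine zipper, bHLH and T-box families, had a median change near that of all genes. Of 21 measured relatives, 14 had a change below 0, none was called and the median was -0.06. This median was -0.22 without WT replicate 3, -0.0083 without WT replicate 2 and -0.02 without *il7r*-/- replicate 3. At an unadjusted p under 0.05, limma gave 5 lower, 23.8% of the relatives against 8.27% of all genes. The groups did not overlap in 6 relatives that were lower (28.6%, against 13.4% of all genes) and in 1 that was higher (against 8.84% of all genes). The OTX genes *otx2a* and *otx2b*, which act earlier and more widely than *crx* and *otx5*, had changes of -0.01 and 0.06 (SE 0.12 for both). The eye field gene *rx3* had a change of -0.26 (SE 0.23, adjusted p = 0.712), with the groups overlapping. The sine oculis homeobox genes *six3a* and *six3b*, which act in the forebrain and eye field, had changes of -0.54 (SE 0.12, adjusted p = 0.189) and -0.42 (SE 0.14, adjusted p = 0.320), while *six6a* had 0.14 and *six6b* -0.21. In *six3a*, *six3b* and *six6b* the groups did not overlap, WT replicate 3 included. The T-box gene *tbx2a* had a change of -0.49 (SE 0.16, adjusted p = 0.307), also with no overlap.

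Both paralogues of the other thyroid hormone receptor had larger point estimates than *thrb*, a difference that was not tested. The change was -0.47 in *thraa* (SE 0.12, adjusted p = 0.223) and -0.34 in *thrab* (SE 0.10, adjusted p = 0.278). Neither pair of groups overlapped, where 13.4% of all genes lay below WT with no overlap. Among 24 measured genes of thyroid hormone synthesis, transport, conversion and co-regulation, which include these paralogues, 19 had a change below 0, none was called (3 lower at an unadjusted p under 0.05 by limma) and the median was -0.12. The retinoid X receptor genes *rxrga* and *rxrgb*, partners of the thyroid hormone receptors, were at -0.16 (adjusted p = 0.636) and -0.36 (adjusted p = 0.407).

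The partners of the factors and other regulators of photoreceptor fate had changes of both signs. Of 31 measured genes, 18 had a change below 0, none was called and the median was -0.04, which turned to 0.03 without WT replicate 2. At an unadjusted p under 0.05, limma gave 5 lower and 3 higher. The groups did not overlap in 6 genes that were lower and in 7 that were higher, where 13.4% and 8.84% of all genes did so. *foxq2*, a forkhead gene required for blue cones in zebrafish, had a change of -0.37 (SE 0.14, adjusted p = 0.376). The homeobox gene *hmx4* had -0.61 (adjusted p = 0.306) and the aryl hydrocarbon receptor gene *ahr1b* -0.47 (adjusted p = 0.314). On the other side, the SoxC gene *sox4b* had 0.50 (adjusted p = 0.283) and *her9*, a bHLH repressor gene, 0.40 (adjusted p = 0.284).

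Genes that mark other cells of the eye and body were read beside the factors. Of 25 measured lens genes, 23 were below 0 in change, the median was -0.81 and none was called (16 lower at an unadjusted p under 0.05 by limma), and the change was -0.95 in *lim2.3* (adjusted p = 0.0900) and -1.29 in the crystallin gene *cryba4* (adjusted p = 0.127). Of 18 measured genes of the pigment epithelium and melanin, 16 had a change below 0 and the median was -0.44 (11 lower at an unadjusted p under 0.05 by limma). The visual cycle genes *rpe65a* and *rgra* were the 2 called lower, at -1.49 (adjusted p = 0.0353) and -1.23 (adjusted p = 0.0400). The median was -0.25 over 30 measured markers of Muller glia and inner retina neurons (11 lower at an unadjusted p under 0.05 by limma). Of these markers *cabp5b*, a bipolar cell gene, was the 1 called lower, by -1.20 (adjusted p = 0.0308). In retinal progenitor and cell cycle genes the median was -0.05 over 20 measured genes (-0.0083 without WT replicate 2 and -0.02 without *il7r*-/- replicate 2) with none called (4 lower at an unadjusted p under 0.05 by limma), and *pax6a*, an eye field gene, had -0.57 (adjusted p = 0.162). Without any 1 array other than WT replicate 3 the calls of *rpe65a* and *cabp5b* ended (adjusted p up to 0.172 and 0.152), and that of *rgra* ended without any 1 of the 6 (0.0607 to 0.185). These eye lists had medians below 0, as the factors did, though that of the progenitor list was near the -0.02 of all genes. Outside the eye, the pineal, liver and endocrine pancreas medians were also below 0, and the muscle median was above it. The neuronal median was 0.03, with 8 of 16 measured genes below 0. The part of a smaller eye in the values of the factors was not tested.

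Pineal genes, which share *crx* and *otx5* with the retina, had a median of -0.14 over 10 measured genes, with none called (2 lower at an unadjusted p under 0.05 by limma), and this median was -0.04 without *il7r*-/- replicate 1 and -0.07 without WT replicate 1. Of these pineal genes 6 had a change below 0 (60%, against 55.0% of all genes), and the changes ranged from -0.98 to 0.32. The 2 with the lowest p, *sagb* (-0.98, adjusted p = 0.236) and *gngt1* (-0.79, adjusted p = 0.293), are transcribed in retinal rods as well. General neuronal genes had a median of 0.03 over 16 measured genes (-0.02 without WT replicate 3 and -0.01 without WT replicate 2), with *nefmb* at 0.51 (adjusted p = 0.220) and *snap25b* at -0.43 (adjusted p = 0.239). Skeletal muscle genes had a median of 0.21 over 12 (0.06 without WT replicate 3), with *ckma*, a muscle creatine kinase gene, at 0.38 (adjusted p = 0.296) and *acta1b*, a muscle actin gene, at 0.42 (adjusted p = 0.458). Liver genes had a median of -0.21 over 9 (-0.13 without WT replicate 1 and -0.14 without *il7r*-/- replicate 2), with *ambp* at -0.50 (adjusted p = 0.314) and *apoa2* at -0.39 (adjusted p = 0.362). None of these neuronal, muscle or liver genes was called. At an unadjusted p under 0.05, limma gave 3 lower and 2 higher neuronal genes, 1 higher muscle gene and 2 lower liver genes. In the pancreas list, *pdx1* and *gcgb*, at 0.47 (adjusted p = 0.232) and 0.35 (adjusted p = 0.260), had the lowest p. The mean level of the muscle list was 8.03 to 8.43 in WT and 8.36 to 8.48 in *il7r*-/- arrays, so muscle transcripts were detected in every array of these whole larvae.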

How the data were processed

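Total RNA of whole larvae was hybridised to Affymetrix Zebrafish Gene 1.0 ST arrays, which the authors analysed in Expression Console. The processing notes of the submitters name RMA, and its annotation is not given in the sources used here. The deposited values have 2 decimals, and their log base, which no source names, was read from their range as log2.

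No further normalization was applied to them. With limma 3.58.1 in R 4.3.3, the genotypes were compared in a fit over all 75212 probe sets (lmFit, then eBayes, two-sided, Benjamini-Hochberg), and a call needed an adjusted p under 0.05 and a fold over 1.5. Of the probe sets, 20806 name 1 gene, 855 name several and were given to none, and 53551 name none. A gene with several probe sets was represented by that with the highest mean. The methods name 3 batches of larvae as the replicates, and no source ties them to replicate numbers.

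The 10 factors, the gene lists and the tests were chosen with earlier results of these data known, and the lists were written from textbook knowledge. No list was tested as a set. Besides the factors, named genes were those called in each list (up to 4) or otherwise the 2 with the lowest p, 4 in the lists of relatives and partners, and a fixed set of paralogues and partners. Members of the set were left out of the other lists. The alternatives were the methods' own test (one-way ANOVA), a robust prior with an intensity trend, quantile normalization, centring on the array median, dropping the dimmest tertile of probe sets, testing only the 20806 probe sets, averaging the probe sets of a gene, weighting arrays, blocking on replicate number and dropping each array.

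On simulated data with 3 arrays against 3 and independent noise over 75212 probe sets, limma called 12 of 100 probe sets with a log2 change of -1 and 79 of 100 with -2. The noise variances were drawn from the variance prior of the limma fit, and the other 75012 probe sets held no change. These rates therefore need not hold for the factors. No change of a factor exceeded 1 in size over all arrays, and that of *rx1* was -1.01 without *il7r*-/- replicate 1. The number of arrays limits the precision. No sequences were used here.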

Additional observations from a re-analysis of the deposited data

How the results depend on the processing

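No factor was called under limma with any alternative or without any 1 array, and the only call came from the methods' test without adjustment, which gave 1 factor, *rx1*, with or without the fold threshold. All 10 changes were below 0 under each of the 16 alternatives, but many of these could not move an estimate. The methods' test, the intensity trend and robust prior, the block and the changes of probe sets tested or averaged left each change as it was. Only quantile normalization, centring, array weights and left-out arrays could turn a sign. The highest value of *thrb* was -0.005, without *il7r*-/- replicate 3. The median change of the factors ranged from -0.62 to -0.28 when single arrays were left out, the count of factors without overlap from 1 to 8, and the number of called probe sets, which was 224 over all arrays, from 5 to 293. The number of called probe sets was 3 with the methods' test after adjustment, 2447 without it and 412 with the intensity trend and robust prior. The adjusted p of *rx1* was 0.105 when only probe sets that name 1 gene were tested and 0.174 without the lowest tertile of probe sets, and ranged from 0.105 to 0.393 over the alternatives with adjustment. With the replicate number as a block 1 probe set was called and no factor. In simulated data this fit called none of 100 probe sets with a change of -2. Those data held independent noise and no shared replicate effect, so they cannot show what the block detects in the real arrays. Over all probe sets, same-numbered arrays did not deviate together (correlations of deviations of -0.0081, 0.0034 and 0.023, or 0.047, 0.0047 and 0.081 over genes). Over genes, arrays of unlike number gave -0.067 to 0.033, below the values of the same-numbered replicates 1 and 3. All these correlations were small and no source ties the numbers to batches, so the numbers were not taken as pairs. The main SEs and intervals thus ignore any such pairing. At the factors, however, each replicate 3 was the lowest of its group in 8 of 10, and the block lowered the SE in all but *thrb*. It fell from 0.25 to 0.19 in *crx*, from 0.20 to 0.13 in *otx5* and from 0.22 to 0.14 in *rx2*. Of 30 same-number differences, 29 were below 0, a count whose share over all genes was not computed. The factors were read from the same arrays, so these differences are not independent observations. Without WT replicate 3 the medians of the closest relatives and of the cone effector, outer segment and synapse and endocrine pancreas lists moved by more than their replicate spread, to -0.22, -1.11, -0.46 and 0.017. The outer segment and synapse median moved likewise to -0.255 without WT replicate 1 and -0.262 without *il7r*-/- replicate 3, that of the endocrine pancreas list to 0.0058 without *il7r*-/- replicate 3, and that of the pigment list to -0.60 without the lowest tertile of probe sets. The cause of these shifts was not tested. *nr2e3* lay in the lowest tertile of genes by level, though not in that of probe sets.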
